A study of Mus musculus with 6 samples.

Results

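Snai1, Snai2, Twist1, Twist2, Zeb1, Zeb2, Vim and Cdh2 are the transcription factors and markers by which a shift of cells from an epithelial to a mesenchymal state is usually followed. These 8 genes were chosen by name, with no threshold on their measured values but with earlier results of these data known. All probes to which the annotation used here gives 1 of the 8 symbols were taken. That annotation holds 13950 of the 45281 probes measured, and its probes with 1 symbol were all among those detected. Undetected probes of the 8 genes could thus not be found. Probes of 7 of the 8 genes were found, 1 for each gene, among the probes of 9192 genes tested. Cdh2, which encodes N-cadherin, had no probe under its symbol in the annotation used here and was not analysed. Whether the array carries an undetected Cdh2 probe is not known here.

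Transcript levels came from TC-1/A9, an MHC class I-deficient mouse line of C57BL/6 background that was derived from TC-1 lung tumour cells carrying viral and ras oncogenes. Of its 6 cultures, 3 had received 3 μM 5-aza-2′-deoxycytidine (DAC), an inhibitor of DNA methyltransferases, for 48 h and then 30 ng/ml trichostatin A (TSA), an inhibitor of histone deacetylases, for a further 24 h. The other 3 cultures (CTL) were untreated, and the series describes the 3 of each group as biological replicates. Each culture was measured on 1 Illumina bead array. All cultures are of 1 line, and both inhibitors were given to the same cultures, so their separate effects cannot be told apart.

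The Snai and Zeb factors are zinc finger repressors that bind E-boxes, short DNA motifs, and are known for silencing the E-cadherin gene and other epithelial genes. The Twist factors are basic helix-loop-helix proteins that bind E-boxes as dimers with E proteins. Vimentin, the product of Vim, forms the intermediate filaments of mesenchymal cells, and N-cadherin joins such cells to each other. Cell lines of mesenchymal type commonly carry several of these factors at once.

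Detected probes numbered 15008, 15783 and 15513 on the DAC/TSA arrays and 14704, 14802 and 14741 on the CTL arrays. The lowest correlation across probes between 2 arrays of 1 group was r = 0.9922. The false discovery rate threshold was 0.01 in limma. At that threshold 43.9% of the 9192 genes changed: 22.5% of the 9192 were higher in DAC/TSA-treated cells and 21.4% were lower. In 63.9% of all genes the 3 treated and the 3 untreated arrays did not overlap. Levels below are quantile-normalised log2 signals, errors of means are SD over n = 3 arrays, and a difference is DAC/TSA minus CTL with its standard error.

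The factors and the marker did not move as a block. Snai2 was higher in DAC/TSA-treated cells, by 1.91-fold. Vim, Zeb1, Twist1 and Twist2 were lower, by 1.59-fold, 1.54-fold, 1.33-fold and 1.29-fold. Neither Snai1 nor Zeb2 passed the threshold. Thus 1 gene was higher, 4 were lower and 2 did not pass the test, and 71.4% of the 7 genes were called, against 43.9% of all genes. The higher gene stands against 22.5% of all genes and the 4 lower ones (57.1% of the 7) against 21.4%. Groups did not overlap in 5 of the 7, and this held for 63.9% of all genes. The median difference of the 7 genes was -0.37 on the log2 scale, against 0.01 over all genes. In these bulk cultures, less RNA per cell and fewer cells carrying it cannot be told apart.

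**Figure D1:**
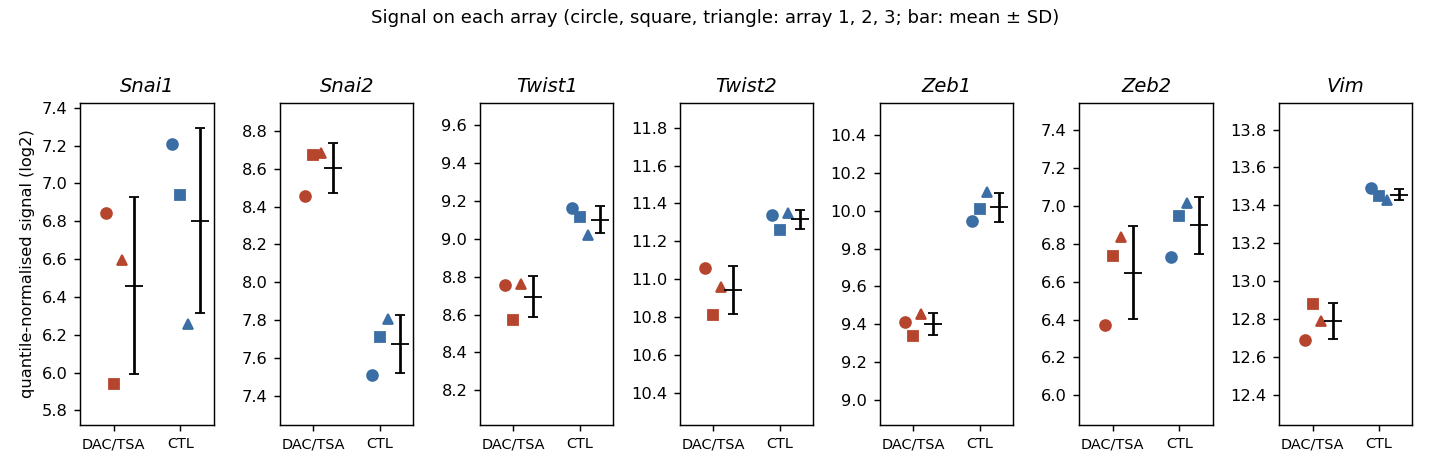
Quantile-normalised log2 signal of each measured factor and of Vim on every array, DAC/TSA arrays left of CTL arrays, with a circle, square and triangle for arrays 1, 2 and 3 and bars for their mean and SD; each panel has its own axis range of equal length. The treated arrays lie above the untreated ones for Snai2 and below them for Twist1, Twist2, Zeb1 and Vim, while the groups overlap for Snai1 and Zeb2.

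Stretches around the start sites of 5 of the 7 measured genes, Snai1, Twist1, Twist2, Zeb2 and Vim, were found among the RefSeq promoter windows of build GRCm38.p6. Each window spans 250 bases before and 50 bases after the start, 300 bases in all. Those of Twist1 and Twist2, whose RNA fell, and of Vim are shown with every CG in capitals, because CG is the dinucleotide that DNA methyltransferases methylate and DAC acts on those enzymes. The Twist1 window lies at chr12:33957421-33957720, the Twist2 window at chr1:91801211-91801510 and the Vim window at chr2:13574061-13574360, all on the plus strand.
Twist1: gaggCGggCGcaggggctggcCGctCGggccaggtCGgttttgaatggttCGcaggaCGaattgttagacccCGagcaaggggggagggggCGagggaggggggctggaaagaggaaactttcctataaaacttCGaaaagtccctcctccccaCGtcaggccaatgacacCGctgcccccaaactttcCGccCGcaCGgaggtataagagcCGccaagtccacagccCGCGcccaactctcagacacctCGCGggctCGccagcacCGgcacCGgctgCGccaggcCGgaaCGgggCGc
Twist2: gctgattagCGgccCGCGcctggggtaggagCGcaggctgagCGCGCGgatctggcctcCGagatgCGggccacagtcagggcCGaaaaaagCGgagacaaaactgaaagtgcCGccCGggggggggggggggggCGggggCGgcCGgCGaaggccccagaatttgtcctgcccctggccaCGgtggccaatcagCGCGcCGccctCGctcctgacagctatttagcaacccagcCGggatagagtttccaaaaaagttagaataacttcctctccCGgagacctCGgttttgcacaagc
Vim: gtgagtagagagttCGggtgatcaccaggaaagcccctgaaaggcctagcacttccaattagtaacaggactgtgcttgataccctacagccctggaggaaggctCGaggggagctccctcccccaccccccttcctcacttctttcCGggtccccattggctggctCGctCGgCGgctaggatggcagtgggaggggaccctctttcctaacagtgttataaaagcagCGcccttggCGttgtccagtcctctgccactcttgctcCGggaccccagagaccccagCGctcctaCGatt
Twist1 had 27 CG in its window, more than 84.5% of all 32851 windows, and Twist2 had 25, more than 81.6%. Vim had 11 CG, more than 58.6% of the windows, against a median of 7 over all of them. The 4 Zeb2 windows held between 8 and 19 CG. Methylation itself was not measured on these arrays.

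The E-box that Snai and Zeb proteins favour reads CACCTG on one strand and CAGGTG on the other. One of these words was present in 20.2% of all windows, whereas the general E-box CANNTG, of which they are a special case, was present in 72.3%. Among the 5 genes with a window only Snai1 had the word, at chr2:167537945-167538244 on the plus strand. It is shown with the CACCTG in capitals, since Snai1 encodes a protein of the family that binds this word.
Snai1: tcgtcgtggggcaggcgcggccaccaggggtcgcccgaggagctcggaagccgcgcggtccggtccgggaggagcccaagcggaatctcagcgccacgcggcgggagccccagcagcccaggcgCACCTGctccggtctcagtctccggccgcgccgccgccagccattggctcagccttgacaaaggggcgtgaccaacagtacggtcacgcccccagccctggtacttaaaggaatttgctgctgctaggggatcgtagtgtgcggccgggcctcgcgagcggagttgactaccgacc
The word starts 126 bases before the Snai1 start, as the offset of -126 gives it, and the window holds 34 CG, more than 92.3% of all windows. No CANNTG of any kind was in the windows of Twist1, Twist2, Vim or Zeb2. A match of letters is a description of the sequence and not a measured binding site.

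Snai2, the gene for the repressor Slug, lies at chr16:14705852-14709395 (GRCm38.p6). Its log2 signal was 8.45, 8.67 and 8.69 on the DAC/TSA arrays, against 7.51, 7.71 and 7.80 on the CTL arrays. Every treated array thus lay above every untreated one, with 0.65 log2 between the nearest arrays of the groups. Levels averaged 8.60 ± 0.13 in DAC/TSA-treated cells and 7.67 ± 0.15 in CTL cells. The difference was 0.93 (SE 0.10), which is 1.91-fold with a 95% confidence interval of 1.63 to 2.24 and an adjusted p of 3.7e-05 in limma. Differences between arrays of the same number were 0.95, 0.96 and 0.88. Any matching of the arrays gives differences above 0, since the groups did not overlap. A larger absolute difference than in 90.7% of all genes placed Snai2 furthest from 0 among the 7. Its call held under all 18 alternatives tried, with a difference between 0.85 and 1.02.

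Snai1, the gene for the repressor Snail, lies at chr2:167538195-167542814. Its log2 signal was 6.84, 5.94 and 6.60 on the DAC/TSA arrays, against 7.21, 6.94 and 6.26 on the CTL arrays. The treated arrays spanned 0.90 log2 and the untreated ones 0.95, and the groups overlapped. The difference of -0.34 (SE 0.26) had a 95% interval of -0.91 to 0.22 and an adjusted p of 0.29 in limma, so changes in either direction lie within it. Pairs of the same number differed by -0.37, -1.0 and 0.34, which do not share a sign. The spread within groups was larger for Snai1 than for 99.96% of all genes, with a residual SD of 0.48. Its signal was detected on all 6 arrays at a detection p of at most 0.001068.

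Snai3, the remaining gene of the Snai family, was not among the 8 chosen genes but was on the list of other factors. Its log2 signal was 6.85, 6.39 and 6.51 on the DAC/TSA arrays, against 5.76, 5.49 and 5.63 on the CTL arrays, where its probe was undetected on all 3. The level in treated cells was at least 1.68-fold higher, measured against the lowest signal that counts as detected (limma, adjusted p = 0.00011). Such a bound is given below as "at least" for every gene undetected in 1 of the groups. Because Snai3 was kept for the test only through the treated arrays, its adjusted p is no support of the kind given for Snai2. Thus Snai2 was higher in DAC/TSA-treated cells and Snai3 was detected only in them, whereas no direction was established for Snai1.

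Twist1 and Twist2 were both lower in DAC/TSA-treated cells. Twist1 lies at chr12:33957671-33959831, and its log2 signal was 8.76, 8.57 and 8.76 on the DAC/TSA arrays, against 9.17, 9.11 and 9.02 on the CTL arrays. The groups did not overlap, and the nearest arrays were 0.26 log2 apart. Levels averaged 8.70 ± 0.11 in treated and 9.10 ± 0.07 in untreated cells, a difference of -0.41 (SE 0.09). This is 1.33-fold lower (95% interval 1.16 to 1.52), with an adjusted p of 0.0030 in limma. Arrays of the same number differed by -0.41, -0.54 and -0.26.

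Twist2, at chr1:91801461-91848034, had log2 signals of 11.06, 10.81 and 10.96 on the DAC/TSA arrays, against 11.34, 11.26 and 11.35 on the CTL arrays. Here too each treated array lay below each untreated one, with 0.20 log2 between the nearest. Means were 10.95 ± 0.13 in treated and 11.32 ± 0.05 in untreated cells. The difference of -0.37 (SE 0.09) is 1.29-fold lower (95% interval 1.13 to 1.48), with an adjusted p of 0.0055 in limma, and pairs of the same number differed by -0.28, -0.45 and -0.38. These are differences of middle size, larger than in 61.6% of all genes for Twist1 and in 57.0% for Twist2.
The calls of both Twist genes depended on single arrays. Without CTL replicate 2 the adjusted p in limma was 0.0127 for Twist1 and 0.0127 for Twist2, and without DAC/TSA replicate 2 it was 0.0186 for Twist1 and 0.0316 for Twist2. Twist2 also missed the threshold without DAC/TSA replicate 3 (0.0186) and without CTL replicate 3 (0.0229). The direction was the same each time.

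The E proteins and Id proteins that Twist factors meet in the cell gave differing values. Tcf4, an E protein that pairs with Twist, was 2.75-fold lower in DAC/TSA-treated cells (difference -1.46, SE 0.09; limma, adjusted p = 6.1e-07). Tcf12, a second E protein, differed by -0.07 (SE 0.12) and did not pass. Among the Id genes, whose products take up E proteins without binding DNA, Id1 was 1.39-fold higher and Id4 at least 1.25-fold lower. Id2 and Id3 did not pass, with differences of 0.03 and -0.31.

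Zeb1 and Zeb2 had differing results in the test. Zeb1, at chr18:5591327-5775468, had log2 signals of 9.41, 9.34 and 9.45 on the DAC/TSA arrays, against 9.95, 10.01 and 10.10 on the CTL arrays. The groups were 0.50 log2 apart at their nearest arrays. Levels averaged 9.40 ± 0.06 in DAC/TSA-treated cells and 10.02 ± 0.08 in CTL cells. Zeb1 was 1.54-fold lower (95% interval 1.36 to 1.75; difference -0.62, SE 0.08; limma, adjusted p = 0.00012), and pairs of the same number differed by -0.54, -0.68 and -0.65. Leaving out any 1 array kept the call, with a difference between -0.66 and -0.58.

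Zeb2, at chr2:44983512-45117442, had log2 signals of 6.37, 6.74 and 6.84 on the DAC/TSA arrays, against 6.73, 6.95 and 7.02 on the CTL arrays. The ranges overlapped, since treated replicates 2 and 3 lay above untreated replicate 1. The difference of -0.25 (SE 0.13; 95% interval -0.53 to 0.04) had an adjusted p of 0.13 in limma. Arrays of the same number differed by -0.36, -0.21 and -0.18, but a pairing by number is not established for numbers 2 and 3. With the replicate number as a block the adjusted p in limma was 0.0099, which passes the threshold, and the count of genes lower in treated cells was then 5. The blocked fit called 27.3% of all genes lower, against 21.4% without the block. Whether Zeb1 and Zeb2 differ in their response was not tested.

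Vim, the mesenchymal marker, lies at chr2:13574311-13582826. Its log2 signal was 12.69, 12.88 and 12.79 on the DAC/TSA arrays, against 13.49, 13.45 and 13.43 on the CTL arrays. The groups stood 0.56 log2 apart. Levels averaged 12.79 ± 0.09 in DAC/TSA-treated cells and 13.46 ± 0.03 in CTL cells, and the mean raw signals were 7411 in treated and 11150 in untreated cells. Vim was 1.59-fold lower in treated cells (95% interval 1.40 to 1.81; difference -0.67, SE 0.08; limma, adjusted p = 7.2e-05). Arrays of the same number differed by -0.80, -0.57 and -0.64, and the call held without any 1 array. The Vim transcript remained detected on all 6 arrays.

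The lower calls of Vim, Zeb1, Twist1 and Twist2 depended on the scaling between arrays. When the arrays were scaled to a common median instead, limma gave an adjusted p of 0.0144 for Vim (difference -0.62), 0.0326 for Zeb1 (-0.55), 0.102 for Twist1 (-0.34) and 0.1 for Twist2 (-0.30). Snai2 stayed past the threshold (difference 1.01, adjusted p = 0.0063). Median scaling with the replicate number as a block, chosen after seeing the data, again called all 4 lower (adjusted p between 3.0e-06 for Vim and 0.0035 for Twist2 in limma). That fit called 22.1% of all genes lower, against 8.44% with median scaling alone.

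**Figure D2:**
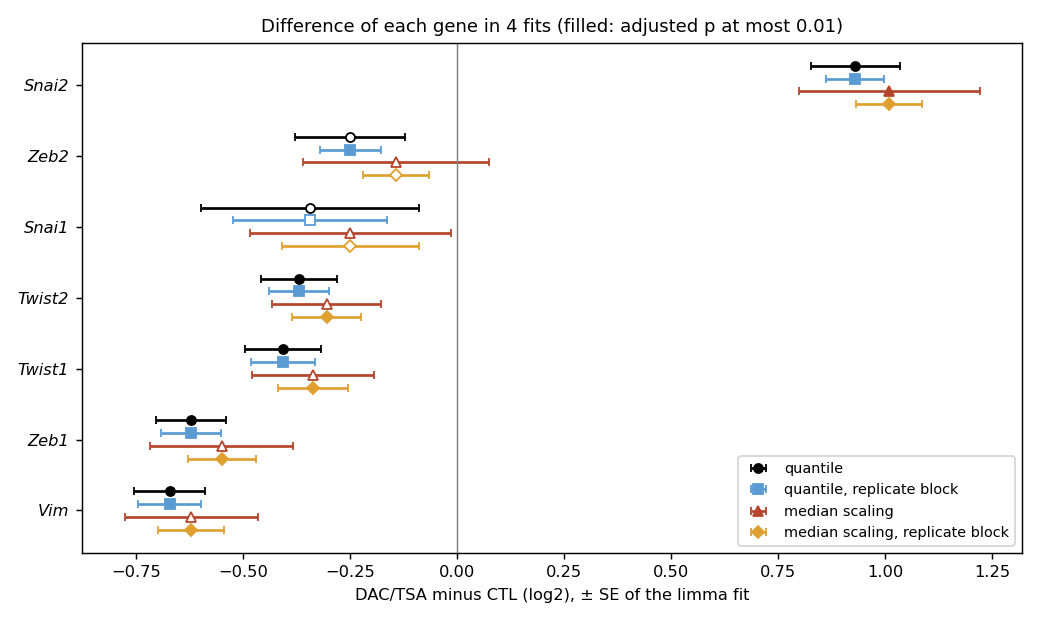
Log2 difference, DAC/TSA minus CTL, of the 7 measured genes with bars of 1 standard error of the limma fit, under quantile normalisation and median scaling, each without and with the replicate number as a block; filled symbols passed the threshold. Snai2 is filled in all 4 fits, Vim, Zeb1, Twist1 and Twist2 are open only with median scaling and no block, Zeb2 is filled only with quantile normalisation and the block, and Snai1 is open throughout.

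The genes most like each of the 7 were sought by their profile over the 6 arrays. Likeness was measured as the root mean square distance between log2 profiles, each centred on its own mean, over 7790 genes detected on all 6 arrays. Golm1, Crip2 and Uros came nearest to Snai2, at 0.032, 0.039 and 0.047 log2, and 45 genes lay within 0.1. Similarly counted, 526 genes lay within that distance of Twist1, 510 of Twist2, 250 of Zeb1, 211 of Vim and 128 of Zeb2. Profiles were not scaled, so this number falls as a gene's difference or spread grows. The profiles nearest to Vim were those of Ptp4a3, Wfikkn1 and Dym, at 0.032, 0.034 and 0.035 log2. Zeb1 was most like Scaf4, Pdcd4 and Snx24, Zeb2 most like Cnot1, Osbp and Smarca4, Twist1 most like Mvp, Msl1 and Rtp4, and Twist2 most like Pank1, Txndc5 and Edc4. For Snai1 no gene lay within 0.1, and its nearest, Smco4, was at 0.22. The next were Rasl11b and Tbc1d20, at 0.23 log2 each. No member of the 7 genes was among the 3 nearest to another.

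Of the other transcription factors linked with the mesenchymal state, more were lower than higher. Of 39 listed, 24 were tested; 3 were higher in DAC/TSA-treated cells, 14 were lower and 7 did not pass, and the median difference was -0.52 against 0.01 over all genes. The shares were 12.5% higher and 58.3% lower, against 22.5% and 21.4% of all genes, and with median scaling 1 was higher and 10 were lower. With detection required on all 6 arrays, 2 were higher and 13 lower. This list and those below were chosen with earlier results of these data known, so such shares describe the lists and are no independent support. Sox4 was 3.33-fold lower (limma, adjusted p = 2.2e-07) and Tbx3 3.05-fold lower (adjusted p = 5.9e-06), followed by Tcf4 and by Tead2, a DNA-binding partner of Yap, at 2.11-fold lower. Besides Snai3 and Id1, the higher gene was Tead4, at 1.33-fold. That value is of its brightest probe, and the other 2 Tead4 probes did not pass.

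Mesenchymal genes other than Vim were called lower more often than higher. Of 46 listed, 34 were tested by their brightest probes. Of the 34, 4 were higher, 19 lower and 11 not past the threshold (median difference -0.48, or -0.41 with genes undetected in a group at their bound). As shares of the 34 these are 11.8% higher and 55.9% lower, against 22.5% and 21.4% of all genes. Acta2, which encodes smooth muscle actin, was 6.52-fold lower in DAC/TSA-treated cells (difference -2.70, SE 0.09; limma, adjusted p = 1.6e-08). Tnc, for the matrix protein tenascin C, was 5.72-fold lower, Itga5, for a fibronectin receptor subunit, 4.89-fold lower and Lox, for an enzyme that crosslinks collagen, 4.68-fold lower.
Of the genes used to define the mesenchymal state besides Vim, the collagen gene Col1a1 was 1.51-fold lower and Col3a1, undetected in treated cells, at least 1.11-fold lower. Col3a1 was detected on 2 of 3 CTL arrays and was kept for the test only through them, so its call is no support. Fn1, which encodes fibronectin, was 1.49-fold lower by its brightest probe, while its other 2 probes did not pass (-0.11 and -0.21 log2). Thy1, for a surface glycoprotein of fibroblasts, was higher by a fitted 5.92-fold against log2 signals of 5.89, 5.97 and 5.68 in CTL cells, which lie at the detection limit and were detected on 2 of 3 arrays. Also higher were Ccn2, for a matrix-bound growth factor, by 1.99-fold and Timp1, for an inhibitor of metalloproteinases, by 1.60-fold. Itgav was 1.64-fold higher by its brightest probe, whereas its other probe was lower by -0.69 log2 and also passed, so its direction is not settled. Some genes counted as not past had other probes that were called higher. For Cd44 these differed by 1.24, 0.79 and 0.46 log2, while a further probe was lower by -0.33. Wnt5a and Dcn each had a probe higher by 0.60 log2. The Dcn probe and the Cd44 probe at 0.46 were undetected in CTL cells. When all probes of a gene were averaged instead, 4 of the 34 were higher and 20 lower. With median scaling 4 of the 34 were higher and 11 lower, and with detection on all 6 arrays 3 were higher and 16 lower.

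**Figure D3:**
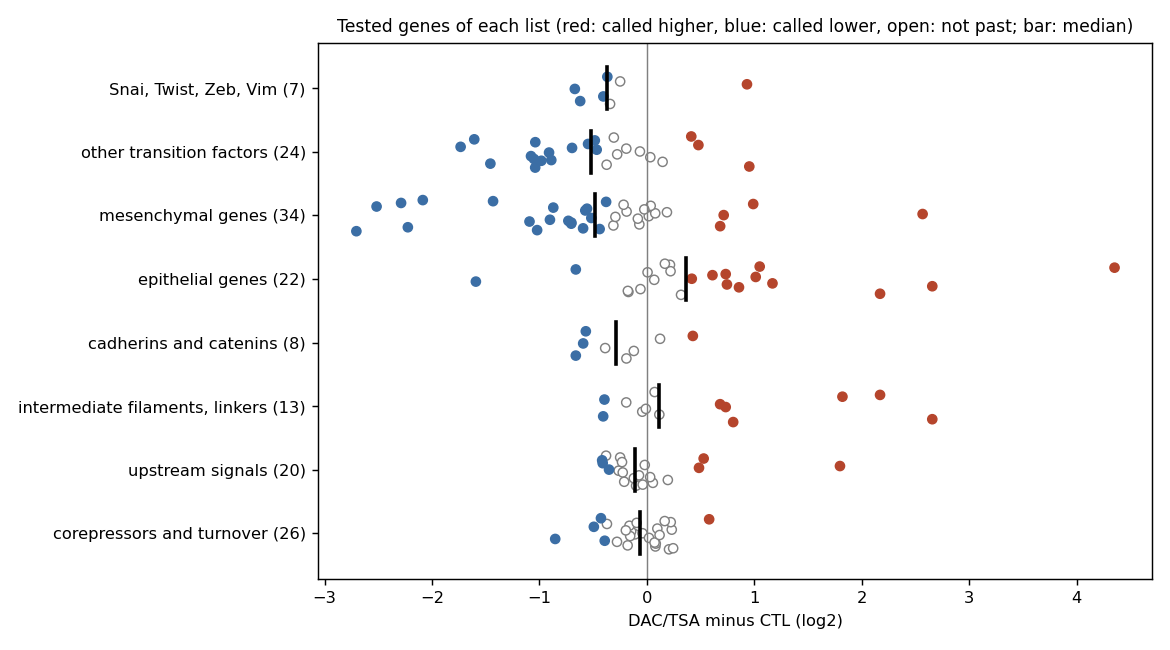
Log2 difference, DAC/TSA minus CTL, of each tested gene in the lists around the transition, 1 row per list with its number of tested genes; filled points were called higher (red) or lower (blue), open points did not pass, and bars mark the medians. The median is -0.52 for the other factors, -0.48 for the mesenchymal genes and 0.37 for the epithelial genes, of which 9 were undetected in CTL cells.

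Epithelial genes, which Snai and Zeb proteins are known to repress, were detected in part only after treatment. Of 45 listed, 22 were tested, and 11 were higher, 2 lower and 9 not past the threshold. For 9 of the 22 no signal was detected in CTL cells, so they were kept for the test only through the treated arrays, and the share of higher calls is no measure of the list. With detection required on all 6 arrays, 3 epithelial genes were higher and 1 was lower. The median difference was 0.37, or 0.15 with those genes at their bound. Cdh1 and Epcam, which define epithelial cells, had no named probe among those kept.
Cldn6, for a tight junction protein, averaged 10.42 ± 0.07 in DAC/TSA-treated cells and 6.07 ± 0.23 in CTL cells, where it was detected on 2 of 3 arrays, a 20.4-fold difference (limma, adjusted p = 4.2e-09). The keratin gene Krt8 was 6.30-fold higher, and its partner Krt18 at least 3.46-fold higher. Pkp2, for a desmosomal plaque protein, was 2.25-fold higher. Lower were Klf4, a Krüppel-like factor, by 3.01-fold and Jup, for plakoglobin, by at least 1.29-fold.

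The E-box word CACCTG or CAGGTG was present in 9 of 19 windows of tested epithelial genes, or 47.4%, against 20.2% of all windows. These windows belong to 15 of the 22 genes, and 9 of the 15 held the word. Of those 9 genes 7 were called higher in DAC/TSA-treated cells, but 5 of the 7 (Krt18, Cldn4, F11r, Muc1 and Cldn3) were undetected in CTL cells and entered the test only through the treated arrays, so that count is no measure of the word. Cldn7 and Patj, which held the word, did not pass. Filament genes, among them keratins of the epithelial list, held it in 5 of 13 windows (38.5%), upstream signals in 5 of 17 (29.4%) and lung epithelial markers in 28.6%. The other factors held it in 2 of 19 windows (10.5%), mesenchymal genes in 1 of 23 (4.35%) and corepressors in 0 of 30. No test of these shares was made, and windows of 1 gene can overlap. Sites of 6 of the 7 higher genes that held the word are shown on the gene's strand with the word in capitals, 1 for each gene, as they are the sites that the repressors' favoured letters mark. The sites of Cldn7 and Patj are not shown, so the display does not tie the word to higher RNA.
Cldn6 (chr17:23679260-23679289, plus strand): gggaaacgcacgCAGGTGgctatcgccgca
Krt18 (chr15:102027990-102028019, plus strand): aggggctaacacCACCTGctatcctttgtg
Cldn4 (chr5:134946931-134946960, minus strand): ctttaactgcagCACCTGtggccgcccttt
F11r (chr1:171437427-171437456, plus strand): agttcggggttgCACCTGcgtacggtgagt
Muc1 (chr3:89228974-89229003, plus strand): tttgttacctgtCACCTGctctgactgtgc
Cldn3 (chr5:134986233-134986262, plus strand): caaagccacaggCAGGTGcaggggcagtct
Cldn4 was at least 1.36-fold higher in treated cells, F11r, for a junctional adhesion molecule, at least 1.44-fold, the mucin gene Muc1 at least 1.16-fold and Cldn3 at least 1.05-fold, all against the detection limit in untreated cells. Whether any of these sites is bound in TC-1/A9 cells was not measured.

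**Figure D4:**
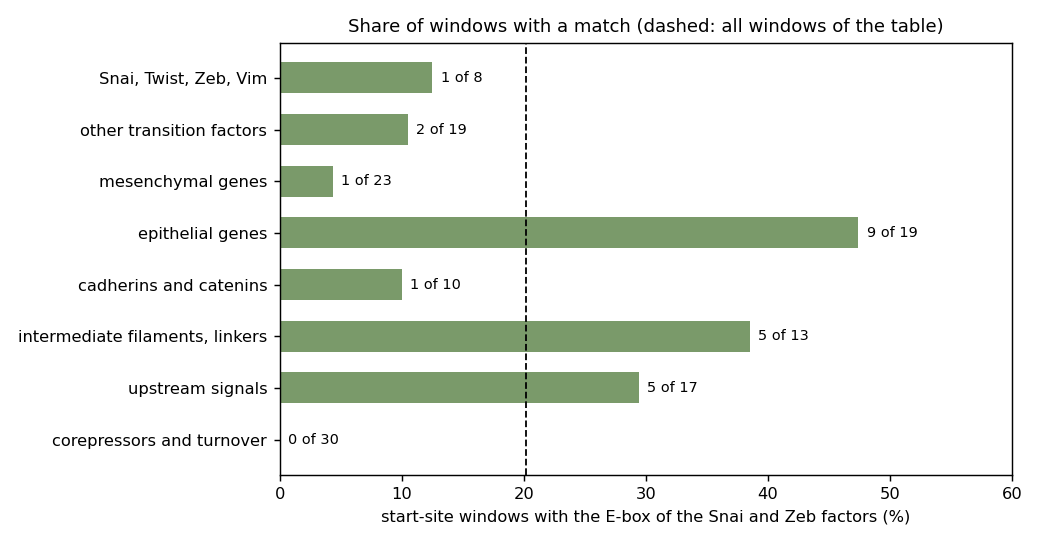
Percentage of 300-base promoter windows that hold CACCTG or CAGGTG, by gene list, with the number of windows beside each bar and the share over all windows (20.2%) as a line. Epithelial genes have the word in 47.4% of their windows, filament genes in 38.5%, upstream signals in 29.4% and mesenchymal genes in 4.35%.

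Genes for corepressors of these factors and for enzymes that mark or degrade them changed seldom by their brightest probes. Of 40 listed, 26 were tested, with 1 higher, 4 lower and 21 not past the threshold (median difference -0.07), and 19.2% were called, against 43.9% of all genes. Ezh2, the methyltransferase of the Polycomb complex that Snail can recruit, was 1.49-fold higher (limma, adjusted p = 0.0085). No higher call was left with neqc background correction, with detection on all 6 arrays, or without CTL replicate 2, CTL replicate 3, DAC/TSA replicate 1 or DAC/TSA replicate 2. The lower calls numbered 2 without CTL replicate 2 or DAC/TSA replicate 3, and 1 with median scaling. Ep300, an acetyltransferase gene, was 1.81-fold lower, Ehmt2, for a histone methyltransferase that Snail can recruit, 1.41-fold lower, the corepressor gene Sin3a 1.35-fold lower and Kat5 1.31-fold lower. The other Kat5 probe did not pass.

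Most genes of the upstream signals did not pass the test. Of 32 genes of the TGF-beta, Wnt, Notch and growth factor routes, 20 were tested, with 3 higher, 3 lower and 14 not past the threshold (median difference -0.11), and 30% were called, against 43.9% of all genes. The 3 lower calls were 0 with median scaling, 1 without CTL replicate 2, 1 without DAC/TSA replicate 3 and 5 with the replicate block. Bmp4, a ligand of the TGF-beta superfamily, was 3.47-fold higher (limma, adjusted p = 1.3e-07), the receptor gene Met 1.40-fold and Egfr at least 1.10-fold. Egfr was undetected in CTL cells and was kept only through the treated arrays, so its call is no support. With detection on all 6 arrays 2 upstream genes were higher and 3 lower. The type I receptor gene Tgfbr1 was 1.28-fold lower, the NF-kB subunit gene Rela 1.33-fold (difference -0.42) and Hey1, a Notch target, 1.33-fold (difference -0.41). The ligand Tgfb1 differed by 0.03 (SE 0.09) and its mediator Smad3 by -0.04 (SE 0.08), and neither passed.

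Filament genes other than Vim gave calls in both directions. Of 23 intermediate filament and linker genes, 13 were tested, with 6 higher, 2 lower and 5 not past the threshold (median difference 0.12). Of the 13, 5 were undetected in CTL cells and were kept only through the treated arrays. With detection on all 6 arrays 2 were higher and 2 lower, and with median scaling 0 were lower, as was the case without DAC/TSA replicate 2. Krt8, Krt18 and Krt19, which also stand among the epithelial genes, were higher, as were Prph, for the neuronal filament peripherin (at least 2.77-fold), Des, for the muscle filament desmin (at least 1.55-fold), and Nes, for nestin (1.60-fold; its other probe did not pass). Lower were Plec, for a filament linker, by 1.33-fold and Lmna, for the nuclear lamins A and C, by 1.32-fold.

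Of 28 genes for cadherins, catenins and nectins, 8 were tested, with 1 higher, 3 lower and 4 not past the threshold (median difference -0.29). The 50% called is near the 43.9% of all genes, and with median scaling 0 were higher and 1 was lower. With detection on all 6 arrays, which leaves out Jup, 1 was higher and 2 were lower. Nectin2 was 1.34-fold higher by its brightest probe, and 1 of its other 2 probes did not pass; no higher call was left without DAC/TSA replicate 2 or 3. Besides Jup, the catenin gene Ctnnd1 was 1.51-fold lower and Ctnnbip1, for an inhibitor of beta-catenin, 1.48-fold lower. The probes of Ctnnb1, for beta-catenin itself, disagreed: the brightest differed by -0.12 (SE 0.22) and did not pass, nor did a second, while the other was lower by -0.65 log2 (limma, adjusted p = 7.5e-05).

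Markers of other cell types were measured beside these genes. Of 26 immune markers 8 were tested, 6 of them higher and 2 lower in DAC/TSA-treated cells, but 4 of the 8 were undetected in CTL cells and were kept only through the treated arrays. With detection on all 6 arrays 1 was higher and 1 lower. Their summed raw signal was 812.5 to 988.4 on the DAC/TSA arrays and 551.5 to 680 on the CTL arrays. Lyz1 was at least 2.68-fold higher and Cd79b at least 2.14-fold lower, whereas Ptprc, Cd3e, Csf1r and Adgre1 had no named probe among those kept. Of 12 endothelial markers 4 were tested, with Egfl7 2.75-fold and Plvap 1.43-fold higher and Flt1 2.20-fold lower, and their summed signal was 1917 to 2347 in treated and 1538 to 1979 in untreated cells. Of 16 lung epithelial markers 6 were tested, with Aqp5 4.31-fold, Napsa at least 1.08-fold and Cldn18 at least 1.09-fold higher and 3 not past the threshold. Napsa and Cldn18 were undetected in CTL cells and were kept only through the treated arrays. With detection on all 6 arrays 1 lung marker was higher. The summed signal of the 6 was 12000 to 15890 in treated and 9292 to 12200 in untreated cells. Sftpc, Scgb1a1 and Nkx2-1, which define lung epithelial cells besides Aqp5, had no named probe among those kept. Neither had Pecam1, Kdr, Tek and Cdh5, which define endothelial cells. The part of other cell types in the differences of Snai2, Vim, Zeb1 and the Twist genes was not tested.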

How the data were processed

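Total RNA of TC-1/A9 cells was measured on 6 Illumina Mouse WG-6 arrays, grouped by the sample titles (DAC/TSA, n = 3; CTL, n = 3). The authors extracted linear signal intensity values that are neither normalised nor background-subtracted, and deposited a detection p-value beside each. Their deposited log2 values were quantile-normalised with lumi and limma (versions not given in the sources used here). These differed by at most 0.0125 from the log2 values recomputed here for the same 16148 probes.

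The 45281 intensities were quantile-normalised and put on the log2 scale. Of the probes, 17445 reached a detection p of 0.01 or less on 1 array or more and were kept. GEO's platform annotation gave 13943 of them 1 symbol and 7 several, and 3495 are unnamed here. The position of a probe within its transcript was not used. For a gene with several kept probes, the one brightest on average was used. Groups were compared by limma 3.58.1 in R 4.3.3 (lmFit, eBayes, two-sided, Benjamini-Hochberg over kept probes, threshold 0.01), which was first tested on simulated data. All adjusted p-values are from limma. The number of arrays limits the precision. Gene loci and promoter windows are from RefSeq, GRCm38.p6. Tables were made with pandas 2.3.3 and figures with matplotlib 3.10.9 (Python 3.11.15).

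The 8 genes and the 10 further lists were chosen with earlier results of these data known. Named from each list were up to 4 genes higher and 4 lower with the largest differences past the threshold, genes completing a count of 5 or fewer, the defining markers Fn1, Col1a1 and Col3a1, and, for each of the 7 measured genes, the 3 nearest profiles. Other genes (Tcf12, Id2, Id3, Id4, Nes, Krt19, Cldn3, Cldn4, Cldn7, F11r, Muc1, Patj, Tgfb1, Smad3 and Ctnnb1) are given for their role or sequence and were chosen after their values were seen.

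Arrays sharing number 1, 2 or 3 deviated together from their group means, with r = 0.63, 0.24 and 0.36 over probes, and the numbers were taken as pairs. Only number 1 stood apart, since arrays 2 and 3 correlated at least as strongly across numbers (0.38 and 0.37). The pairing is inferred from these values alone and is not established for numbers 2 and 3. The fit without the pair number is the main one, and the number was used as a block in an alternative. Other alternatives changed the scaling, the background correction, the detection filter, the variance model and the choice of probe, used the authors' log2 values, or left out arrays.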

Additional observations from a re-analysis of the deposited data

How the results depend on the processing

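Differences of the 7 genes kept their sign under all 18 alternatives, and 114 of 126 gene results kept their side of the threshold. The detection filters, the replicate block, the variance model and the choice of probe left each of these differences unchanged. Only the other alternatives therefore bear on the sign. Of the measured genes 5 were called, 1 higher and 4 lower. With median scaling 1 was called and 0 were lower, and the differences that no longer passed in limma were -0.34 for Twist1, -0.30 for Twist2, -0.55 for Zeb1 and -0.62 for Vim. Median scaling moved the median of all genes to 0.09 and the split of all calls to 61.1% higher, against 51.3% with quantile normalisation, with 1219 genes higher and 776 lower. It called 21.7% of all genes, against 43.9% in the main fit. With median scaling and the replicate block together, chosen after seeing the data, 5 were called again, 1 higher and 4 lower. That fit called 57.5% of all genes, 35.4% higher and 22.1% lower. With neqc background correction Twist2 (-0.37, adjusted p = 0.0134 in limma) no longer passed. The replicate block, which takes arrays of a number as pairs, brought Zeb2 (-0.25, adjusted p = 0.0099 in limma) past the threshold and changed no other call of the 7. With this block 56.7% of all genes were called. Without 1 array at a time, 3 to 5 genes were called and 2 to 4 were lower, the count of 3 being reached without CTL replicate 2 and without DAC/TSA replicate 2. These fits called between 33% of all genes (without DAC/TSA replicate 2) and 46.3% (without CTL replicate 1). Without both arrays numbered 1, chosen after seeing the data, the calls of the 7 genes did not change, and 52.9% of all genes were called. List counts stayed within 1.5 times in 324 of 360 comparisons. The chip as a block was not run, since the files used here name no chip. The detection limit lay between 5.73 and 5.84 log2, and the lowest signal of Snai1 was 5.94 and that of Zeb2 6.37.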
